A study of Mus musculus with 89 samples.

Results

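A set of 10 genes was followed through single cells of the mouse dentate gyrus, the part of the hippocampus in which neurons are born after birth. They were taken by name: 7 genes of the neuroblast cytoskeleton (Dcx, Stmn1, Stmn2, Tubb3, Tuba1a, Tubb2b and Dpysl3) and 3 genes of secreted proteins (Igfbpl1, Mfap4 and Draxin), 10 of the 24411 genes in the tables. All 10 had reads in at least 1 cell. The series compares stem cells and early progeny of mice aged 2 months with those of mice aged 4.5 months. All mice, of both ages, were C57BL/6 animals homozygous for the reporter transgene Nestin:CFPnuc (B6.Cg-Tg(Nes-CFP)1Enik/J), which places a nuclear cyan fluorescent protein under the Nestin promoter. Live cells of the dissected dentate gyrus were sorted with propidium iodide as the dye for dead cells, and each was sequenced alone. The deposited groups table gives 60 cells the class qNSC (read here as quiescent neural stem cell; 32 at 2 months, 28 at 4.5 months), 18 the class aNSC (activated neural stem cell; 11 and 7) and 11 the class IPC (intermediate progenitor cell; 5 and 6).

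The labels name no animal, so each age counts as 1 sample, no test was run, and SDs describe the spread between cells. How the classes were assigned is not stated in the sources used here. If they rest on the same expression values, differences between classes in the genes described here are partly built in. The Nestin promoter is a further limit of the model, since it is active in stem and early progenitor cells and not in later neuroblasts.

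Stem cells of the dentate gyrus divide to give intermediate progenitors, which in turn give neuroblasts that move a short way and grow an axon and dendrites. Those steps need a dynamic microtubule array, built from alpha- and beta-tubulin pairs, held in bundles by proteins such as doublecortin and kept in turnover by stathmins. Newborn neurons also release factors that act on the matrix and on neighbouring axons.

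Promoter windows were taken from the RefSeq table of GRCm38.p6 for 4 of the 10 genes (Dcx with 2 starts, Draxin, Tuba1a and Tubb3). Sequence upstream of the annotated gene is shown for Dcx and Draxin, 2 genes that were read mainly in IPC cells and that hold different letters there. The windows of 300 bases (250 before and 50 after each start) were searched on both strands for CAGATG and CAGCTG (E-box forms that proneural factors bind), ACAAAG (core of SOX sites) and TATAAA, and matches are in capitals. The Dcx stretch is chrX:143933312-143933469 (minus strand) and the Draxin stretch is chr4:148130699-148130948 (minus strand), both written 5′ to 3′ along the gene.

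Dcx: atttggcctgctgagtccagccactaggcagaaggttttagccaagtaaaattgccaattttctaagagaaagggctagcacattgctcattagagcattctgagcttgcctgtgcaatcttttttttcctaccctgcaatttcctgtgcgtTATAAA

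Draxin: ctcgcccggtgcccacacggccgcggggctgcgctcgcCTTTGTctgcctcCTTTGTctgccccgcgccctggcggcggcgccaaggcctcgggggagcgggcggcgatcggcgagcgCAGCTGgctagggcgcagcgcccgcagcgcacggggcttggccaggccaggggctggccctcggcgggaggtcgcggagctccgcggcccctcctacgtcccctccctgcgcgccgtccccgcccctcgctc

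The Dcx stretch held TATAAA, at -98 from the RefSeq start of this window. Draxin held CAGCTG at -132 and the reverse form of ACAAAG at -212 and -199. The other Dcx window held the same TATAAA and an ACAAAG at -8, and the windows of Tuba1a and Tubb3 held none of the 4 motifs. Such matches are common. Over 32851 promoter windows of this length, 17.2% held CAGATG, 16.3% CAGCTG, 18.7% ACAAAG and 13.6% TATAAA. Base composition differed too, with 41.6% G or C in the 250 bases before this Dcx start, 79.6% in those of Draxin, 56.8% for Tuba1a and 68.0% for Tubb3.

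Total counts per cell ran from 234607 to 1896072 and the class medians from 823468 to 952296. In IPC, all 8 markers listed for intermediate progenitors (Eomes, Insm1, Sox11 and the member Igfbpl1 among them) had 10 or more reads in some cell, and 9 of the 11 cells had at least 50% of the list at that level. Of the 14 markers listed for quiescent stem cells, at least 50% were at that level in 7 of the 11 cells. Among the aNSC, 7 of 18 cells had 10 or more reads of Pdgfra. All 9 markers of oligodendrocyte precursors were read in them, with a summed level of 4982 to 11912.5 TPM (transcripts per 1000000, scaled by length), against 0 to 175 TPM in the other 11 aNSC, where Pdgfra, Sox10, Neu4, Lhfpl3 and Gpr17 were at 0. These 7 cells go against their label, 2 further aNSC carried endothelial, mural or ependymal markers, and 4 qNSC carried markers of oligodendrocytes or endothelium. Comparisons with aNSC are therefore given against all 18 cells and against the 11 Pdgfra-negative ones. Cell 113 of 2 months (cells are named by the number in their title) stood apart within IPC: 9 of the 10 listed neuroblast markers (members Dcx, Stmn2, Tubb3 and Igfbpl1 among them) had 10 or more reads in it, while Eomes, Mki67 and Top2a were at 0. The quiescent list had a median summed level of 4071 TPM in IPC and 65135 TPM in qNSC. Cell 2 of 4.5 months, an IPC cell, held 18887 TPM of it. That cell had 10 or more reads of 8 of the 14 quiescent markers and 3 of the 8 progenitor markers, with no read of Eomes. It was the lowest IPC cell for Stmn1 and the highest for Tubb2b.

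Of the 10 genes, 9 had their highest mean level in IPC and Tubb2b had its lowest there. This held on the scales of log2(TPM + 1) and log2(CPM + 1) (CPM, counts per 1000000 counts of the cell). Among all genes read in enough cells to be compared, 69.0% had a higher mean log2(CPM + 1) in IPC than in qNSC. Against aNSC that share was 49.1%. The share of all genes with their highest mean in IPC was not counted. The number of the 10 genes with 10 or more reads in a cell was 6 to 9 in IPC (median 6), 2 to 5 in aNSC (median 4) and 0 to 4 in qNSC (median 3). The ranges of IPC and the stem cells did not meet. The 10 genes were chosen with earlier results of these data known, and the same count was not made for other genes. All genes read per cell had a median of 4647 in IPC, 4768 in aNSC and 3713.5 in qNSC. By level in qNSC, Tuba1a, Tubb2b and Stmn1 stood above the other genes, with mean log2(TPM + 1) of 10.26 ± 1.79, 8.05 ± 2.86 and 5.53 ± 4.27 (SD over 60 cells). Dpysl3 was sparse at 0.43 ± 1.48, and the other 6 genes had means of 0 to 0.17. Only the gap between Stmn1 and Dpysl3 (5.10) was larger than both SDs of the neighbours. In IPC the order by the same measure was Stmn1 (13.12 ± 0.48), Tuba1a (12.70 ± 0.90), Mfap4 (8.39 ± 3.04), Tubb2b (6.18 ± 2.47), Igfbpl1 (5.12 ± 2.93), Tubb3 (4.37 ± 4.33), Dpysl3 (3.98 ± 3.46), Draxin (1.97 ± 2.32), Dcx (1.28 ± 2.43) and Stmn2 (0.77 ± 2.56; n = 11 cells). Of neighbours in that order, only Tuba1a and Mfap4 were further apart than the larger of their SDs.

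**Figure D1:**
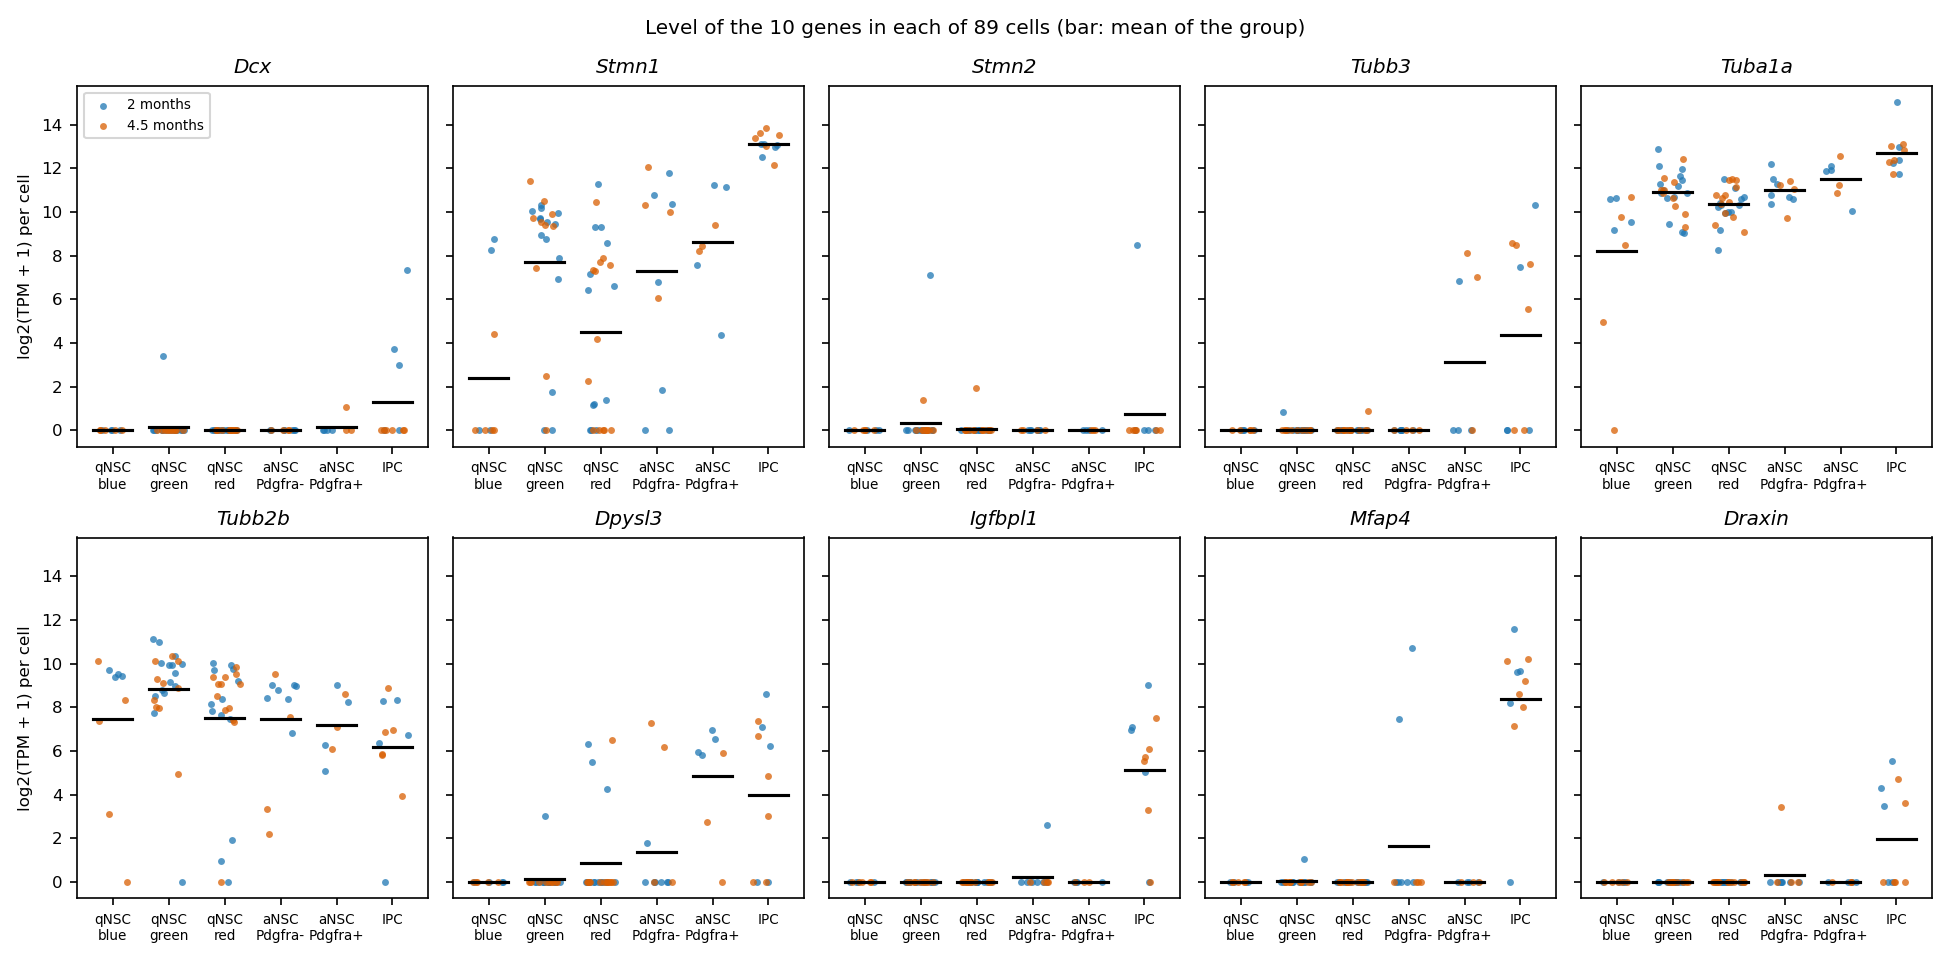
Level of each of the 10 genes, log2(TPM + 1), in each of the 89 cells, by class and, within qNSC, by the colour code of the groups table, and within aNSC by reads of Pdgfra. Points are cells (blue, 2 months; orange, 4.5 months) and bars are group means. Stmn1 lies above all other groups in the 11 IPC cells, Igfbpl1 is at 0 in all 60 qNSC, and Tubb2b is lowest in IPC.

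A gene was called different between 2 groups of cells where at least 20% of either group's cells had a read of it, its mean log2(CPM + 1) differed by at least 1, its summed CPM differed at least 2-fold and the share of cells with a read differed by at least 15 percentage points, all in 1 direction. This is a rule of size and not a test. In IPC against qNSC 7 of the 10 were called higher (Dcx, Stmn1, Tubb3, Dpysl3, Igfbpl1, Mfap4 and Draxin). In that comparison 31.8% of all measured genes were called higher, so that a call alone says little here. The same 7 were called higher in IPC against the Pdgfra-negative aNSC, where 19.3% of genes were; there the call of Stmn1 was lost without cell 37 or 44 of 2 months, through the share of cells alone. Against all 18 aNSC 5 were called (Dcx, Tubb3, Igfbpl1, Mfap4 and Draxin) with 13.5% of genes higher. Over the members measured (9 of 10 in each of these comparisons), the median difference in mean log2(CPM + 1) was 4.35, 3.30 and 2.49, beside 0.92, 0.20 and -0.04 over all measured genes. Without any condition on the share of cells, a form of the rule chosen after seeing the data, 8 were called higher in IPC against all aNSC (17.4% of genes), Tuba1a among them, and Tubb2b was called lower in IPC against qNSC (14.4% of genes called lower).

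Stmn1 (chr4:134468320-134473843, plus strand; positions are from GENCODE on GRCm38) encodes stathmin, which binds tubulin dimers and promotes the disassembly of microtubules, in dividing cells as well as in young neurons. Its deposited level in the 5 IPC cells of 2 months was 5801, 8039, 8521, 8889 and 8929 TPM, and in the 6 cells of 4.5 months 4565, 8326, 10615, 11643.5, 12404 and 14679.7 TPM. In aNSC it ran from 0 to 4239 TPM with a median of 512.5, and in qNSC from 0 to 2701.5 TPM with a median of 160.3. The lowest IPC cell thus lay above the highest stem cell of either class, by a small margin over the aNSC. Such a separation was rare. On the CPM scale the groups did not overlap for 2 of 9395 measured genes in IPC against aNSC (0.0213%; Stmn1 and the RNA-binding protein gene Hnrnpa1, named after its values were seen), for 7 of 8502 in IPC against qNSC (0.0823%) and for 2 of 8787 against the Pdgfra-negative aNSC (0.0228%).

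Stmn1 was also the most even of the 10 in IPC. Mean log2(CPM + 1) was 12.33 ± 0.50 in IPC, 7.03 ± 3.67 in aNSC and 4.999 ± 3.95 in qNSC, and summed CPM was 23.5 times higher in IPC than in qNSC and 9.21 times higher than in aNSC. Part of the stem cells had no read of it: 17 of 60 qNSC and 2 of 18 aNSC. Of the 50-base words in its transcripts, 18.9% also occur in other genes, mainly in the predicted gene Gm11223, and a miRNA gene lies in one of its exons, so its count carries some uncertainty.

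Stmn2 (chr3:8509360-8561606, plus strand) encodes a neuronal stathmin found in growth cones. In IPC its reads came from 1 cell, cell 113 of 2 months, with 355 TPM (383 reads), and the other 10 had none. In aNSC it had no read in 18 cells, which allows a share of cells with a read of up to 16.7% (3 of 18). In qNSC 3 of 60 cells had reads, 1 of them 125 reads (136 TPM; cell 145 of 2 months, green code) and the other 2 at 4 reads together. The 2 stathmins therefore had different patterns, one in every IPC cell and one in a single cell of the class.

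Dcx (chrX:143855842-143933311, minus strand) encodes doublecortin, a microtubule-bundling protein that is the usual marker of neuroblasts. It was read in 3 of 11 IPC cells (27.3%, exact 95% interval 6.02 to 61.0), all of 2 months: 162.7 TPM (909 reads) in cell 113, 12.2 TPM (77 reads) in cell 9 and 6.9 TPM (36 reads) in cell 91. Cell 113 thus held most of the class total. Outside IPC, 1 of 18 aNSC had 9 reads and 1 of 60 qNSC had 39 reads (9.5 TPM; cell 161 of 2 months). Dcx was thus low or absent in most cells of each class, and its call against all aNSC was lost without cell 113, 9 or 91: without cell 113 the difference in mean log2(CPM + 1) was 1.00 to 2 decimals, just under the limit, and the summed CPM 12.6 in place of 101.

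**Figure D2:**
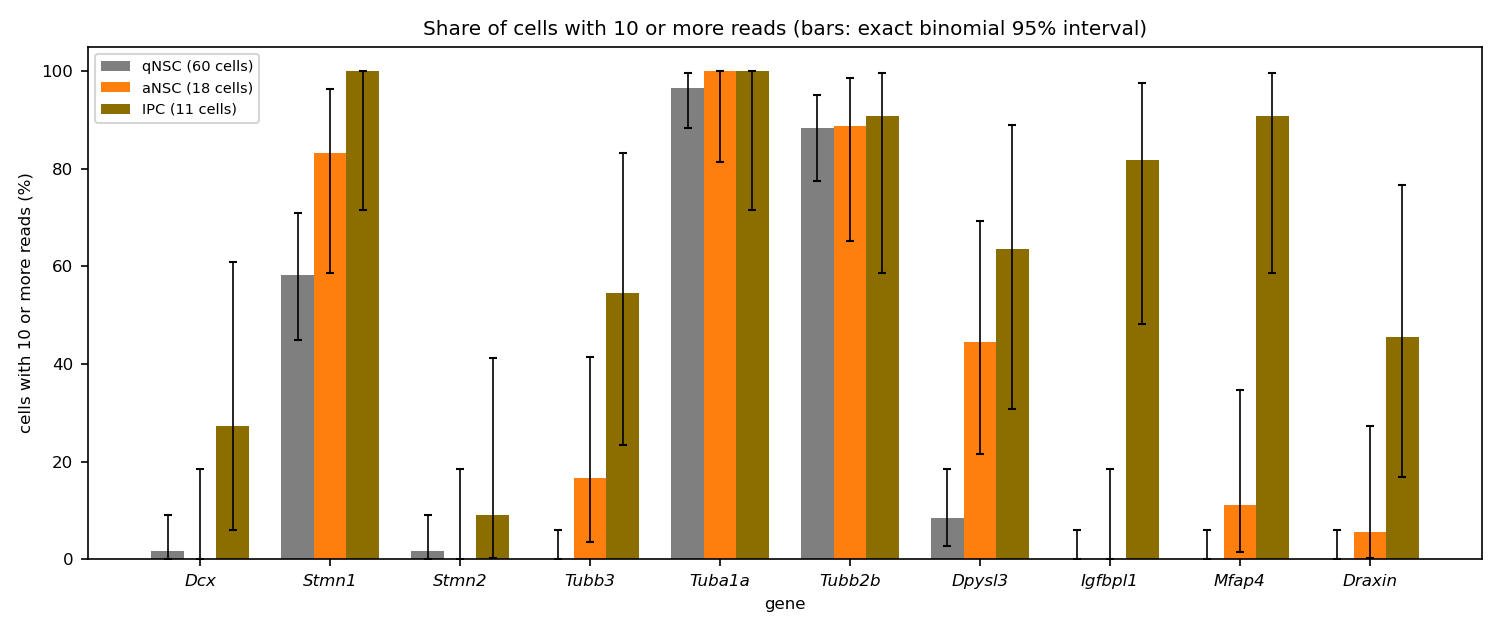
Share of cells with 10 or more reads of each gene in qNSC (60 cells), aNSC (18) and IPC (11), in percent. Error bars are exact binomial 95% intervals and cover counting error only. Tuba1a and Tubb2b are near the top in all classes, while Igfbpl1 and Mfap4 reach 81.8% and 90.9% in IPC and are at 0 in qNSC.

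Tuba1a (chr15:98949837-98953703, minus strand) encodes the main alpha-tubulin of developing neurons. The 5 IPC cells of 2 months held 3457, 4802, 5369, 8071 and 33186 TPM, and the 6 of 4.5 months 3374, 4993, 5313, 7383, 8193 and 8849 TPM. The stem cells held 850 to 5979 TPM (aNSC, median 2402) and 0 to 7651 TPM (qNSC, median 1578). Cell 113 alone stood far above the rest, and the ranges of the classes overlapped. The difference in mean log2(CPM + 1) was 2.42 against qNSC and 1.62 against aNSC, in both cases more than the larger SD, and summed CPM was 4.64 and 3.70 times higher. It was not called only because nearly every cell of every class had reads of it.

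Tubb3 (chr8:123411424-123422015, plus strand) encodes the beta-tubulin held to be specific to neurons, and Tubb2b (chr13:34126748-34130466, minus strand) one found in neural progenitors, glia and neurons. Tubb3 was read in 6 of 11 IPC cells, 5 of them at 46 to 385 TPM and cell 113 at 1277 TPM. In qNSC it had 2 reads over 60 cells, a summed CPM of 0.0363 against 231 in IPC. In aNSC 3 of 18 cells had reads (113, 130 and 276 TPM), and all 3 were Pdgfra-positive: Tubb3 had no read in the 11 Pdgfra-negative cells, which makes its summed CPM in IPC at least 643-fold higher. Without cell 113 the summed CPM of Tubb3 in IPC was 123 and that bound 343-fold. Tubb2b had the opposite order. Its median was 529 TPM in qNSC (0 to 2234), 311.6 in aNSC (3.61 to 739) and 104.2 in IPC (0 to 473), and its summed CPM 716, 283 and 181. These ranges overlapped, and the differences in mean log2(CPM + 1) (-1.89 against qNSC, -1.09 against aNSC) were less than the spread between cells.

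Counts of near-identical tubulins can be split only by estimate. Among cells with a count, the count was not whole in 96.6% for Tuba1a and 94.0% for Tubb2b, and in 0% for the other 8 genes. Of the 50-base words of Tuba1a, 72.9% also occur in other genes (mainly Tuba1c and Tuba1b), and 36.9% of those of Tubb2b do (mainly Tubb2a). The levels of these pairs are uncertain for that reason. The copy Tubb2a, whose reads are the ones most easily exchanged with those of Tubb2b, had a mean log2(CPM + 1) of 8.39 in qNSC and 2.46 in IPC, so that both were lower in IPC.

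Set side by side per length, a view chosen after seeing the data, the beta-tubulin mix differed between the classes. In qNSC Tubb2a made up 36.9% of the summed beta-tubulin TPM, Tubb2b 29.98%, Tubb4b 26.9% and Tubb5 4.27%. In IPC Tubb5 made up 39.96%, Tubb4b 35.8%, Tubb3 9.08%, Tubb2b 6.12% and Tubb2a 4.55%. The place of Tubb3 in that order rests on cell 113: without it Tubb3 made up 5.005%, Tubb2b 5.69% and Tubb2a 5.23%. The Pdgfra-negative aNSC held 34.1% Tubb2a, 22.6% Tubb2b and 5.01% Tubb5. The total moved little beside this: the median summed beta-tubulin level per cell was 1858 TPM in qNSC and 2199 TPM in IPC, whereas the median summed alpha-tubulin level was 2102 and 9294 TPM. Tuba1a held 71.5% of alpha-tubulin in qNSC and 73.6% in IPC. The order of these shares also rests on cell 113, where Tuba1a made up 97.6%. In the other IPC cells it made up 36.3% to 90.3%, and their share of summed TPM was below that of qNSC.

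**Figure D3:**
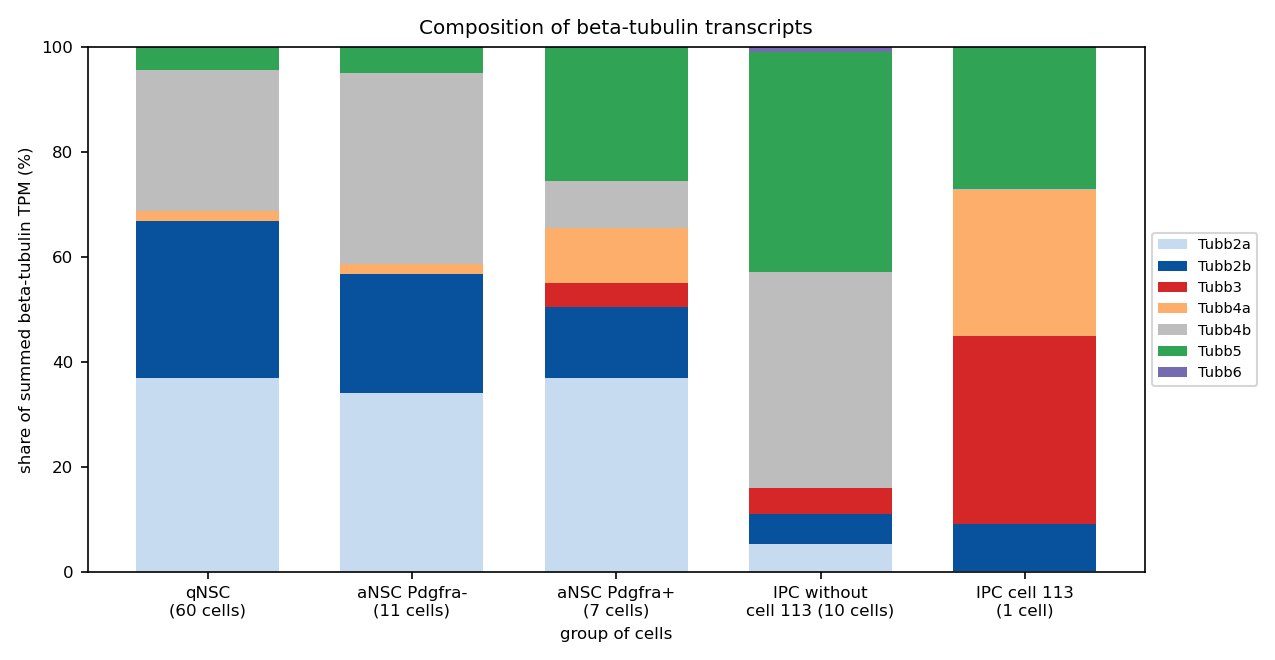
Share of each beta-tubulin gene in the summed beta-tubulin TPM of a group of cells, in percent, for qNSC, the 2 kinds of aNSC, the 10 IPC cells other than cell 113, and cell 113. Tubb2a and Tubb2b (blues) fill most of the qNSC bar, Tubb5 and Tubb4b most of the IPC bar, and cell 113 has 35.8% Tubb3 and 27.97% Tubb4a.

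Dpysl3 (chr18:43320984-43438286, minus strand) encodes a collapsin response mediator protein that acts on axon growth. In IPC 7 of 11 cells had reads, at 72.7, 135 and 389 TPM (2 months) and 7.08, 28.3, 100 and 162 TPM (4.5 months). In aNSC 9 of 18 had reads, and these were split unevenly: 6 of 7 Pdgfra-positive cells (5.65 to 124 TPM) but 3 of 11 Pdgfra-negative ones (2.45, 70.4 and 154 TPM). The difference in mean log2(CPM + 1) between these 2 kinds was 4.41, while the summed CPM (170 and 89.3) differed less than 2-fold. Tubb3 was called between them (higher in Pdgfra-positive cells, with 22.8% of genes called higher), while calls of Dpysl3 and Mfap4 turned on single cells. Without cell 3 of 4.5 months, which held 585 reads of Dpysl3, its Pdgfra-negative summed CPM was 22.3, the ratio 7.63 and Dpysl3 called higher, and it was also called without cell 53, 87 or 188 of 4.5 months. Mfap4 was called lower in Pdgfra-positive cells without any 1 of the 9 Pdgfra-negative cells that had no read of it. The summed CPM of Dpysl3 in IPC was 292, and 186 without cell 113. In qNSC 5 of 60 cells had reads, 4 of them of the red code, with at most 89 TPM. The gene was thus shared between IPC cells and the aNSC with oligodendrocyte-precursor markers, whose part in the aNSC value was not tested.

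Igfbpl1 (chr4:45809468-45826923, minus strand), whose secreted product is related to the insulin-like growth factor binding proteins, had the cleanest boundary of the 3 secreted genes. In the IPC cells of 2 months it held 0, 31.5, 124, 136 and 521 TPM, and in those of 4.5 months 0, 8.78, 45.7, 51.4, 68.0 and 183 TPM. None of 60 qNSC had a read, which allows a share of cells with a read of up to 5% (3 of 60), and 1 of 18 aNSC had 2 reads (5.09 TPM). Its summed CPM was 174 in IPC, at least 3204-fold higher than in qNSC, and without cell 113 it was 104 and at least 1903-fold higher. The differences in mean log2(CPM + 1) (5.75 against qNSC, 5.58 against aNSC) were larger than the SD of either group.

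Mfap4 (chr11:61485431-61488900, plus strand) encodes a microfibril-associated glycoprotein of the extracellular matrix and was the most abundant of the secreted genes. It was read in 10 of 11 IPC cells: 293, 772, 794 and 3094 TPM at 2 months, with 1 cell (cell 91) at 0, and 142, 255, 386, 589.5, 1094 and 1196 TPM at 4.5 months. In qNSC it had 1 read in 60 cells. In aNSC 2 of 18 cells had it, both Pdgfra-negative and of 2 months: 1674 TPM in cell 97, within the IPC range, and 174 TPM in cell 46, which was also the aNSC cell with Igfbpl1. Its summed CPM was 678 in IPC and 78.7 in aNSC, and 2.42 in aNSC without cell 97. Its exons overlap those of Mapk7 on the opposite strand and the library kit does not record strand, so reads of the 2 genes cannot be told apart there.

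Draxin (chr4:148098437-148130698, minus strand) encodes a secreted guidance protein that repels axons, binds the netrin receptor Dcc and dampens Wnt signals through Lrp6. It was read in 5 of 11 IPC cells at low levels, 10.1, 18.7 and 44.8 TPM at 2 months and 11.4 and 25.5 TPM at 4.5 months. Of the stem cells, 0 of 60 qNSC and 1 of 18 aNSC (9.91 TPM, cell 3 of 4.5 months) had reads. The summed CPM was 44.7 in IPC, 2.30 in aNSC and 0 in qNSC, at least 822-fold higher in IPC than in the last. Cell 19 of 2 months held 243 of the 453 Draxin reads in IPC, and without it the summed CPM was 24.1 and the bound 442-fold. Of 11 listed receptors and netrin genes 3 were measured in IPC against the Pdgfra-negative aNSC, and 0 of 2 measured ones were called against qNSC. Lrp6 (0.49 against 2.56) and Ntn4 (0 against 2.13 in mean log2(CPM + 1)) were called lower, in the former comparison, with 18.1% of genes called lower.

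The 11 IPC cells did not carry the 10 genes in 1 common mix. Stmn1 and Tuba1a were high in all of them. Igfbpl1 and Mfap4 mostly went together. The cell without Mfap4 (cell 91 of 2 months) also lacked Igfbpl1, while cell 2 of 4.5 months lacked Igfbpl1 and held 589.5 TPM of Mfap4. Over the 11 cells Pearson's r between their log2(CPM + 1) was 0.67 and Spearman's rho 0.76 (0.62 and 0.68 without cell 113). Draxin ran against that pair, with r of -0.46 to Igfbpl1 (rho = -0.53) and -0.47 to Mfap4 (rho = -0.61), but 3 of the 5 cells with Draxin (cells 47 and 19 of 2 months and 176 of 4.5 months) held all 3 genes. Dpysl3 was higher where the progenitor transcription factor Sox11 was (r = 0.60, rho = 0.79) and lower where the stem cell gene Hopx was (r = -0.65, rho = -0.63). All these values rest on 11 cells prepared in 1 way and of unequal depth, and they are descriptions only. Eomes, the defining factor of intermediate progenitors, was lower at higher total counts over the same cells (r = -0.61, rho = -0.80); for Igfbpl1, Mfap4, Dpysl3 and Draxin r with total counts lay between -0.13 and 0.25.

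**Figure D4:**
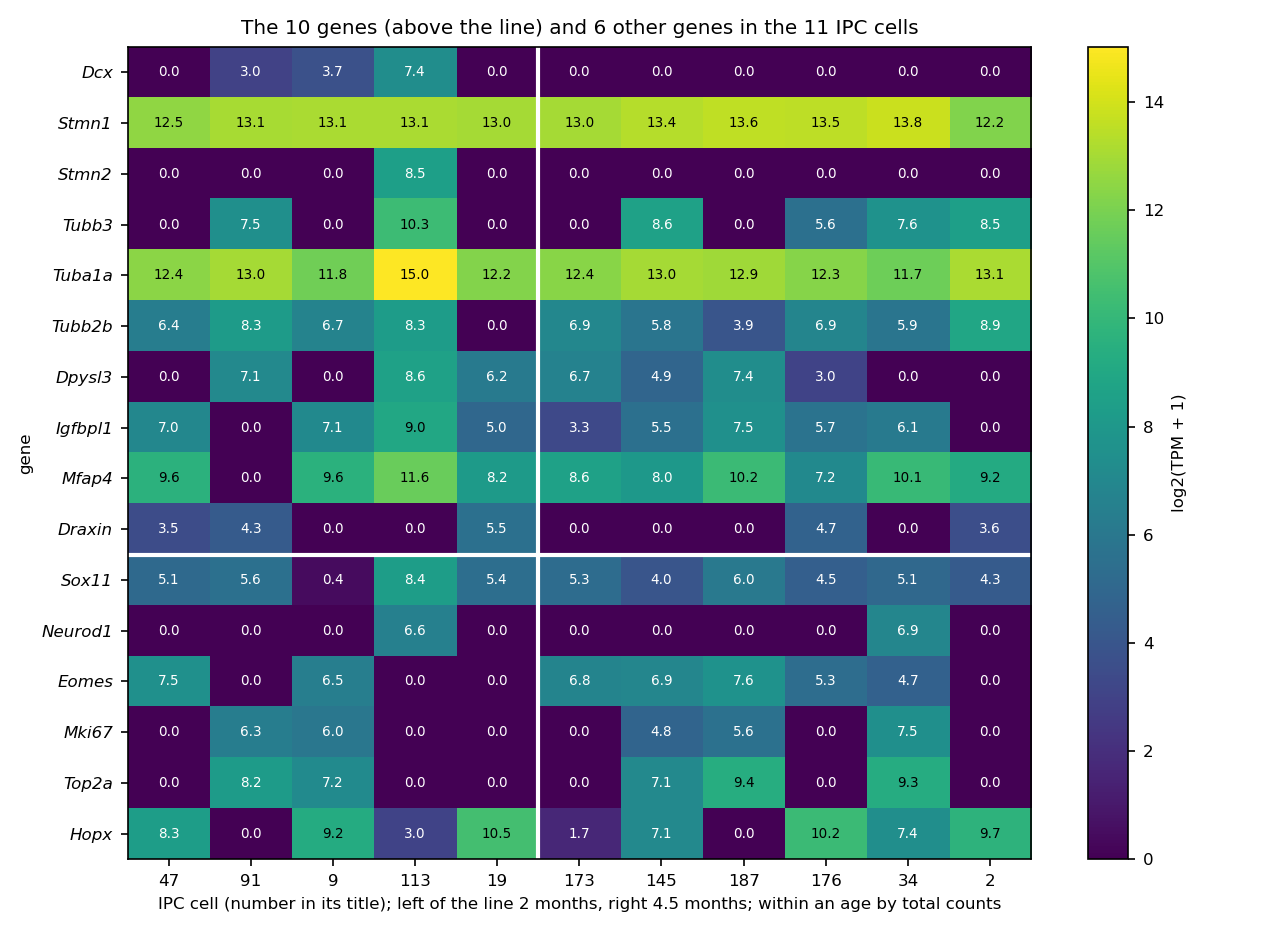
Heat map of log2(TPM + 1) for the 10 genes and, below the line, 6 genes that mark the cell state, in the 11 IPC cells (columns, named by the number in the title; 2 months left, 4.5 months right). Stmn1 and Tuba1a are high in every column, and cell 113 has the highest value of Dcx, Stmn2, Tubb3, Tuba1a, Dpysl3, Igfbpl1, Mfap4 and Sox11.

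Cell 113 carried more of these genes than any other IPC cell. It held the highest level of 7 of the 10 members, 9 members with 10 or more reads, Neurod1 at 93.5 TPM and Sox11 at 333 TPM, with no read of Eomes, Mki67, Top2a or Draxin. Its alpha-tubulin was 97.6% Tuba1a and its beta-tubulin 35.8% Tubb3. Proliferation transcripts were found in other cells: Mki67 and Top2a were read together in cells 9 and 91 of 2 months and 145, 187 and 34 of 4.5 months, at 27.1 to 174 TPM for Mki67. Among these 5, Tubb3 was read in 3 (cells 91, 145 and 34) and Dcx in 2 (cells 9 and 91). Reads of these 2 neuronal genes were thus also found in cells with Mki67. Neurod1 had reads in cell 113 and in cell 34 of 4.5 months (118 TPM), the latter with no Dcx, Stmn2, Dpysl3 or Draxin.

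Between the ages, no member was called within the qNSC, where 8.14% of measured genes were called in either direction. The younger qNSC with a read of Stmn1 numbered 25 of 32 and the older 18 of 28, with summed CPM of 226 and 241. Tuba1a and Tubb2b had summed CPM of 1753 and 1655, and 807 and 596, in the same order. Only these 3 genes were measured in enough cells, and all 3 differences in mean log2(CPM + 1) (-0.96, -0.52 and -0.29) were smaller than the SDs of 0.99 to 4.02.

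Within aNSC 1 member was called, Tubb3, higher at 4.5 months, with 11.6% of genes called higher: 2 of 7 cells against 1 of 11. All 3 cells with reads were Pdgfra-positive, and 3 of the 7 Pdgfra-positive cells were of 4.5 months. Without the 9 aNSC that carried markers of another type, Tubb3 had no reads at either age and 3 other members were called from 6 and 3 cells, Dpysl3 (5.07) and Draxin (1.69) higher and Mfap4 (-2.94) lower, in a comparison that called 23.2% of all genes higher and 25.4% lower. These calls rest on few cells. With the 18 aNSC, that of Tubb3 was lost without cell 83 or 87 of 4.5 months, and Mfap4 was called lower at 4.5 months without any 1 of the 9 cells of 2 months that had no read of it.

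Within IPC 3 of 10 were called lower at 4.5 months (Dcx, Stmn2 and Draxin), with 22.8% of genes called lower. Dcx was read in 3 of 5 cells at 2 months and in 0 of 6 at 4.5 months, a count that allows up to 50% of cells with a read (3 of 6). Its mean log2(CPM + 1) was 4.23 ± 4.19 and 0. Draxin was read in 3 of 5 and 2 of 6 cells, with 3.68 ± 3.47 and 2.02 ± 3.15. The Draxin call was lost without cell 19 of 2 months (summed CPM 18.9 at 2 months and 27.4 at 4.5 months) and without cell 187 or 34 of 4.5 months, and Igfbpl1 was called lower without cell 91 of 2 months. Stmn2 rested on cell 113 alone. Without that cell Dcx (-2.88) and Draxin (-2.58) were still called lower (25% of genes), Stmn2 had no reads, and Tubb3 was called higher at 4.5 months, at 4 of 6 cells against 1 of 4 and a summed CPM of 179 against 42.8 (9.36% of genes higher). With cell 113 included the summed CPM of Tubb3 was 179 at 4.5 months and 287 at 2 months, so that this cell sets the direction of the summed CPM. The mean log2(CPM + 1) of Tubb3 was higher at 4.5 months with and without cell 113. With that cell kept, the difference of medians over cells was 6.77. Stmn1 (12.51 ± 0.59 against 12.11 ± 0.26) was not called. The 2 ages also differed in cell state, with 10 or more reads of Eomes in 2 of 5 and 5 of 6 cells, and of Mki67 in 2 of 5 and 3 of 6, whose part in these differences was not tested. With 1 sample per age, the spread between animals is unknown.

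The qNSC carry 1 of 3 colour codes in the groups table, whose meaning is not stated. With all cells kept, Stmn1 was the only member called between codes. It was read in 22 of 25 green cells, 18 of 26 red cells and 3 of 9 blue cells, with median TPM of 697, 50.7 and 0 and summed CPM of 393, 110 and 82.3. The blue value rests on cell 175 of 2 months, without which it was 29.99 from 2 cells and Stmn1 was called higher in red than in blue as well. Green was called higher than red (difference 3.01; 7.74% of genes higher) and than blue (4.86; 18.6% of genes higher), and no member was called between red and blue with all cells kept, where 20% of genes were called either way. The levels of single cells overlapped between codes. Tuba1a followed the same order, 10.78 ± 1.00, 10.29 ± 0.81 and 8.25 ± 3.50 in mean log2(CPM + 1), as did the median of total counts (1004300 green, 974500 red, 793965 blue), whose part in the order was not tested. The astrocyte list was lowest in green, at medians of 4639.5 TPM summed in green, 10779 in red and 10676 in blue.

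Within aNSC against qNSC 2 members were called higher, Stmn1 (2.03) and Dpysl3 (2.96), with 21.1% of genes higher. The call of Stmn1 was lost without cell 3 of 4.5 months, where the ratio of summed CPM was 1.97. Without the cells with markers of another type, Dpysl3 stayed at 1.72, Mfap4 was called instead (1.94, from 2 of 9 aNSC) and Stmn1 missed the share condition at a difference of 2.35.

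Other genes of the same families were read beside them, in lists chosen with earlier results of these data known. Of 9 other stathmins, doublecortin-like and collapsin response genes, 6 were measured in IPC against the Pdgfra-negative aNSC and 5 were called higher, where 19.3% of all genes were called higher and 18.1% lower, among them Crmp1 (5.29 against 1.42), Stmn3 (4.51 against 1.79) and Dpysl5 (2.68 against 0, in mean log2(CPM + 1)); the list's median difference was 2.16, beside 0.20 over all genes. Of the other tubulins 9 were measured. Tubb5 (10.42 against 4.36) and the centrosomal gamma-tubulin Tubg1 (5.95 against 2.90) were called higher, while Tubb2a, Tuba4a and Tubd1 were called lower. Among microtubule-associated proteins 6 of 22 were called higher, Map6 (2.56 against 0.21) and Camsap1 (2.01 against 0.06) with them, and 1 lower, the plus-end protein Mapre3.

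Actin and growth cone genes had 7 of 18 measured members called higher and 0 lower, with a median of 1.65, beside the same shares of all genes. Dbn1, which encodes the actin-binding drebrin, was at 7.34 against 2.31, Marcksl1 at 8.78 against 4.45 and the thymosin gene Tmsb10 at 6.49 against 2.21. Of microfibril and elastic fibre genes other than Mfap4, 1 of 9 was called higher (Fbln1, 5.78 against 1.90) and 4 lower, Mfap3l, Ltbp3 and Ltbp1 among them, beside the same shares of all genes. Against qNSC Mfap2 was called higher too (8.82 against 3.76, read in 11 of 11 IPC cells), as it was against all aNSC. Of the binding proteins and receptors of insulin-like growth factors and insulin, 0 of 4 measured genes were called higher and 2 lower (Igfbp2 and Insr), a list too short to read against those shares. Transcription factors and RNA-binding proteins of the granule lineage were higher in 11 of 12 (median 4.39), with Elavl4 at 8.08 against 2.34, and all 19 measured proliferation genes were called higher (median 3.71). Whether genes of the last 2 lists were used to draw the class IPC is not stated.

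Over all 89 cells, the genes outside the 10 whose log2(CPM + 1) was most like the mean standardised level of the 10 were Marcksl1 (Spearman's rho 0.72), Hmgb1 (0.70), H3f3b (0.68), Ptma (0.67) and Cdk4 (0.64), of 9133 genes with reads in at least 10 cells. Marcksl1 binds actin at membranes, Hmgb1 and H3f3b encode chromatin proteins, and Cdk4 encodes a kinase of the cell cycle. For Dcx alone the most alike was Nup62, at 0.53, but only 5 of the 89 cells had reads of Dcx. The cells share library preparation and differ in depth and class, so these are descriptions.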

How the data were processed

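The authors deposited estimated counts per gene and cell, TPM (summing to 1000000 per cell) and a table of classes and colour codes. Per the submitters' processing notes, STAR, RSEM and the build mm10 were used; the annotation is not given in the sources used here. The kits were SMART-Seq v4 and Nextera XT, per the labels' protocols. Counts were rounded where reads were counted (4.44% of values above 0 were not whole, tolerance 1e-06) and taken as log2(CPM + 1), with a pseudocount of 1. Shares have exact Clopper-Pearson 95% intervals. A count of 0 cells is given with the share that 3 of the group's cells make. Ratios to a group without reads used a floor of 3 counts for the whole group. The libraries carry no molecular identifiers, so reads may be copies of 1 molecule, and all intervals and floors include only the error of counting. No doublet caller was run. Samples were grouped by age from the labels and by class from the deposited table.

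The 10 genes and all lists were chosen with earlier results of these data known. Besides the 10, the text names 7 genes that annotate cells (Eomes, Neurod1, Sox11, Mki67, Top2a, Hopx, Pdgfra), the near-identical tubulins, up to 3 genes each way per list with the largest difference among those called in IPC against qNSC or against Pdgfra-negative aNSC, and the genes most alike over cells. Calls were recomputed with other pseudocounts, scalings, filters and cell sets. The procedure was checked on simulated data, in which the rule also called genes that had not been changed, so a call alone is no evidence of a difference between conditions. Some genes of the lists are not reported here by name. Gene positions come from GENCODE M21 and promoters from RefSeq. Python 3.11.15, numpy 2.4.6, pandas 2.3.3, scipy 1.17.1 and matplotlib 3.10.9 were used.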

Additional observations from a re-analysis of the deposited data

Results flagged for a closer look

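In groups of 4 to 10 cells, 14 of 34 sets of levels had 1 cell far from the others (a gap to the nearest cell that is large for the group's range). The limits used flag about 1 in 20 sets by chance where values are normally distributed. TPM values of single cells were used without a log and are often 0, so that rate does not hold here. The 34 sets are not independent, since the same cells recur, and where all other cells are at 0 any cell with reads stands apart.

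Cell 113 of 2 months accounted for 6 of them among the 5 IPC cells of its age. It held 162.68 TPM of Dcx (next 12.24), 355.01 TPM of Stmn2 (next 0), 1277.42 TPM of Tubb3 (next 178.23), 33185.7 TPM of Tuba1a (next 8071), 520.61 TPM of Igfbpl1 (next 136.18) and 3093.91 TPM of Mfap4 (next 794.42). In the same group cell 47 was the lowest for Stmn1 at 5800.67 TPM (next 8039), and it had the fewest counts of any IPC cell, 312948.

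Among the 6 IPC cells of 4.5 months, cell 2 stood apart for Tubb2b at 473.04 TPM (next 121.79) and cell 187 for Igfbpl1 at 182.53 TPM (next 67.99).

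Among the 7 aNSC of 4.5 months, cell 3 stood apart for Stmn1 at 4238.81 TPM (next 1293) and for Draxin at 9.91 TPM (next 0), and cell 83 for Tuba1a at 5979.19 TPM (next 2747). Cell 87 was the only one with Dcx, at 1.12 TPM from 9 reads, both among these 7 cells and among the 7 Pdgfra-positive aNSC.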

How the results depend on the processing

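Each call was recomputed under 12 other settings, 10 planned and 2 added after seeing the data (no condition on the share of cells, and without shallow cells). Of 1750 recomputed differences of single members, 5 moved by more than the larger SD over cells, and no called difference changed sign. The 1750 include those with 1 IPC cell left out, which could not count as moved. Leaving out 1 cell always shifts a mean by less than that SD. The counts of called members moved as follows. The 7 in IPC against qNSC became 5 with medians over cells or the 50% filter and 9 without the share condition, and the 7 against Pdgfra-negative aNSC became 5, 5 and 8, and 6 without shallow cells. In IPC against aNSC the 5 became 3 with medians over cells and with a 50% filter on the share of cells, and 8 without the share condition. Pdgfra-positive against Pdgfra-negative aNSC gave 1, and 2 on the deposited TPM or with no filter, 0 with medians or the 50% filter. Between the ages within aNSC the 1 became 0 with a pseudocount of 10, with medians and with the 50% filter, 2 with no filter and 3 without cells with markers of another type. Green against blue gave 2 in place of 1 when 10 reads were needed or without the share condition, and red against blue 1 in place of 0 on TPM or with no filter. Leaving out 1 IPC cell at a time gave 4 to 6 in IPC against aNSC, 7 to 7 against qNSC and against Pdgfra-negative aNSC, and 2 to 4 between the ages within IPC. Leaving out any 1 cell of either group, also added after seeing the data, changed the calls named beside the results, and Dpysl3 in IPC against aNSC was called without any 1 of 13 cells. The cause was not tested, beyond what each setting removes. Pdgfra-positive against negative aNSC could not be recomputed without cells with markers of another type, since none of the former remained. Thinning to 445311 reads left out 9 cells. No paired analysis was possible because numbers shared by titles of the 2 ages name cells and pair nothing, and no result comes from a test.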
